A study of Mus musculus with 6 samples.

Results

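Transcripts of the dermal sheath (DS) and the dermal papilla (DP), the 2 mesenchymal populations of the hair follicle, were compared in mouse back skin at postnatal day 16. The comparison took every gene with a deposited RPKM (reads scaled to transcript length and library depth) of at least 1 in at least 2 of the 4 DS and DP libraries. That left 14172 of the 24529 genes listed, in 4 of the 6 libraries of the series. The other 2 libraries hold dermal fibroblasts (DF) of the same skin and serve here as a reference level and for the estimate of spread. Cells were sorted by flow cytometry from dorsal skin of female CD1 mice in early catagen, the onset of follicle regression, with 2 biological replicates for each population. The 3 populations share strain, sex, age and tissue, and the labels name no transgene or treatment. The sources used here do not name the sort markers, any reporter in the mice or how many animals were pooled, and which of the genes below took part in the sort is not known. RNA from the sorted cells was amplified from a few nanograms of starting material before the libraries were made.

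The sheath is a smooth-muscle-like layer that wraps the follicle and contracts in catagen, which draws the papilla upward as the epithelium below it regresses. Smooth muscle shortens when calcium released from internal stores, or let in from outside, activates myosin light chain kinase through calmodulin, and endothelin receptors are a classical way to start that release. The papilla is the cell cluster at the follicle base that signals to the hair epithelium through Wnt, BMP and FGF factors and their inhibitors. The title of the series names endothelin and sheath contraction as its subject, so contraction, the receptors that drive it and the ligands each population makes are described in turn.

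DS and DP differed in many genes. Of the 14172 genes, 1711 were called higher in DS and 1463 higher in DP, where a call needs a log2 difference of 1 or more in size and a limma adjusted p below 0.05. Called genes made up 22.4% of those tested, 12.1% in the DS direction and 10.3% in the DP direction, and these shares are the background for every list below. Small RNA genes made up 20 of the DS calls and 52 of the DP calls and are not described. The difference passed a log2 size of 4 in 155 DS genes and 144 DP genes. In all 1711 DS calls and all 1463 DP calls the DS and DP libraries did not overlap. A statement below that both libraries of a population exceeded both of the other therefore adds nothing to the call. On the deposited scale, before the scaling between libraries used here, 1397 genes were called higher in DS and 1907 higher in DP, which is 9.86% and 13.5% of those tested. DS then took 42.3% of the calls, against 53.9% with the scaling, and the median over all genes moved from 0.007 to -0.18 (log2, DS minus DP). Of the scaled calls, 1391 in DS and 1460 in DP were also called on the deposited scale.

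**Figure D1:**
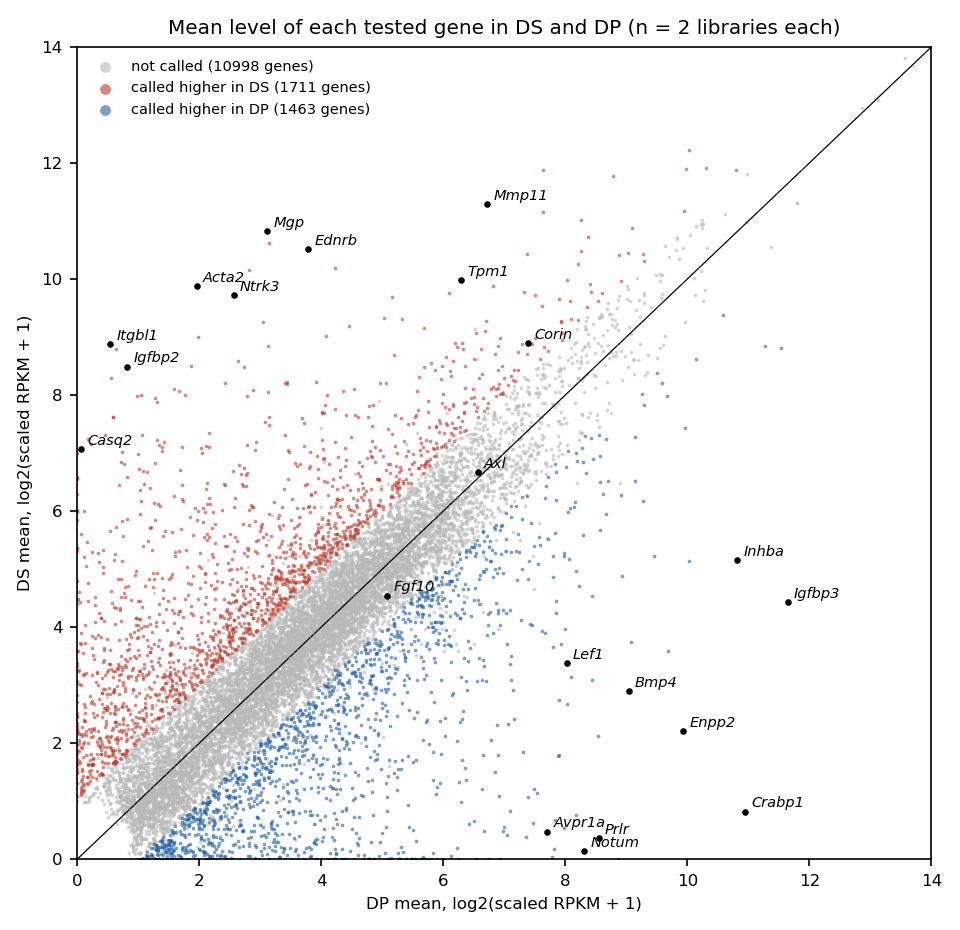
Mean level of each of the 14172 tested genes in DP (x axis) and DS (y axis), both as log2(scaled RPKM + 1), with 2 libraries per population; red points are the 1711 genes called higher in DS and blue points the 1463 called higher in DP. Genes of sheath contraction and matrix such as Acta2, Mgp and Ednrb lie far above the diagonal, Crabp1, Notum and Enpp2 far below it, and Axl and Fgf10 near it.

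Genes of matrix, of contraction and for receptors were among those with the largest differences toward DS. Itgbl1, a secreted integrin-like protein, read 468 and 467 RPKM in DS and 0.536 and 0.366 in DP. Ogn, the small leucine-rich proteoglycan osteoglycin, read 464 and 421 RPKM in DS and 0.413 and 0.679 in DP. Both were near absent from DP, with log2 differences of 8.34 and 8.17 (SE 0.15 and 0.24). Mgp, the matrix Gla protein that restrains calcification, read 1983 and 1637 RPKM in DS and 10.3 and 4.996 in DP. Igfbp2, a binder of insulin-like growth factors, read 380.01 and 337 RPKM in DS and 0.76 and 0.762 in DP. Ntrk3, the receptor of neurotrophin-3, read 935 and 758 RPKM in DS and 4.47 and 5.35 in DP (log2 difference 7.16, limma adjusted p = 1.97e-05). Sema3d, a secreted guidance protein, and Itga11, a collagen-binding integrin subunit, had log2 differences of 7.04 and 7.05.

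A retinoid binder, hormone receptors and secreted proteins were among the genes with the largest differences toward DP. Crabp1, which binds retinoic acid in the cytoplasm, read 0.358 and 1.17 RPKM in DS and 1816 and 2116 in DP. No tested protein-coding gene with non-overlapping libraries differed more (log2 difference -10.16, SE 0.30, limma adjusted p = 2.65e-05). Prlr, the prolactin receptor, read 0.153 and 0.411 RPKM in DS and 369 and 377 in DP. Avpr1a, the vasopressin receptor of smooth muscle, read 0.495 and 0.281 RPKM in DS and 193 and 222 in DP, on the papilla side rather than the sheath side. Enpp2, the secreted enzyme autotaxin that makes lysophosphatidic acid, read 3.87 and 3.4 RPKM in DS and 916 and 1042 in DP. Igfbp3 read 21.3 and 20.1 RPKM in DS and 3115 and 3286 in DP, and Pappa2 and Pappa, proteases that cut such binding proteins, were also higher in DP (log2 differences -6.85 and -6.03). DS and DP thus each held a different abundant binder of insulin-like growth factors, Igfbp2 in DS and Igfbp3 in DP.

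DF placed these genes on a wider scale. Of the genes higher in DS than DP, the DF mean was at or above the DS mean in 422, at or below the DP mean in 292 and between them in 997. Of those higher in DP, the DF mean was at or above the DP mean in 196, at or below the DS mean in 344 and between them in 923. Dcn, the proteoglycan decorin, was an example of the first kind, with 1069 and 1209 RPKM in DS and 4.66 and 7.41 in DP and 5640.3 and 4681 RPKM in DF. Ednrb, the endothelin receptor B, was an example of the second kind, with 1388 and 1539.5 RPKM in DS and 11.3 and 14.2 in DP and 4.21 and 4.86 RPKM in DF, and these are counts of means with no test of DF.

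The labels fit known markers of both populations. The marker lists were chosen with earlier results of these data known, and which genes took part in the sort is not known. This fit is therefore no independent check of the labels. Of 20 listed sheath markers 18 were higher in DS and 0 in DP, with a median log2 difference of 3.68, against 0.007 over all tested genes. The other 2, Col8a1 and Itga5, were not called (-1.18 and 0.082), and Col8a1 was called higher in DP without DP replicate 1 (-2.05, limma adjusted p = 0.0214). Of 37 tested papilla markers 26 were higher in DP and 3 in DS, with a median of -2.30. The 3 were Nog, the BMP antagonist noggin, Corin, a membrane protease known for its place in the papilla, and Tbx18, a transcription factor of embryonic follicle mesenchyme. Corin read 483 and 463 RPKM in DS and 142 and 192 in DP, Nog 19.7 and 21.6 RPKM in DS and 2.98 and 6.11 in DP and Tbx18 10.1 and 11.4 RPKM in DS and 3.698 and 3.98 in DP, with log2 differences of 1.51, 2.03 and 1.278. Alpl, whose product alkaline phosphatase is a classical papilla stain, was higher in DP but low, at 4.803 and 6.41 RPKM, and Sox2, a marker of some papillae, was low and not called (1.004 and 0.723 RPKM in DS and 2.11 and 2.74 in DP), though called higher in DP on the deposited scale (log2 difference -1.07). Summed over the lists, papilla markers gave 961 and 947 RPKM in DS and 10908 and 12247 in DP, and sheath markers 6829 and 6612 in DS and 342 and 394 in DP. In bulk libraries such as these, fewer cells of a type and less RNA per cell cannot be told apart.

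Markers of keratinocytes, endothelium, leukocytes and melanocytes were low beside these sums, and their part in the results was not tested. Of 25 tested keratinocyte markers 2 were higher in DP and 0 in DS, and the list summed to 111 and 271 RPKM in DS and 187 and 257 in DP, so the groups overlap. The DP count was 5 without DP replicate 1, 1 without DP replicate 2, 0 without DS replicate 1 and 4 on the deposited scale, and the DS count was 1 without DS replicate 1. Of 12 tested endothelial markers 1 was higher in DS and 2 in DP, with sums of 43.2 and 19.4 in DS and 61.8 and 51.3 in DP. Pecam1 and Cdh5, defining endothelial genes, were low: Pecam1 read 2.503 and 0.205 RPKM in DS and 2.68 and 1.13 in DP, and Cdh5 1.97 and 0.196 RPKM in DS and 2.29 and 0.927 in DP. Of 7 tested leukocyte markers 2 were higher in DS and 0 in DP, with sums of 26.7 and 16.3 in DS and 13.1 and 13.8 in DP. The DS count was 1 when any of the 4 DS and DP libraries was left out and on the deposited scale, and the DP count was 1 without DS replicate 1. Of 5 tested melanocyte markers 1 was higher in each population, and on the deposited scale 1 in DS and 3 in DP. The DP count was 0 without either DS library and 2 without either DF library. The sums of 111 and 123 RPKM in DS and 68.2 and 83.4 in DP lay mostly in Mc1r (57.96 and 61.2 RPKM in DS and 46.9 and 60.9 in DP) and Mitf (50.6 and 56.7 RPKM in DS and 11.96 and 10.9 in DP), while the pigment genes Dct and Tyrp1 stayed under 1 RPKM in all 4 libraries. Of 8 tested Schwann cell markers and 4 tested adipocyte markers, 1 of each was higher in DP and 0 in DS. The Schwann cell count in DP was 2 without DP replicate 2 or DS replicate 1 and 3 on the deposited scale, and that in DS was 1 without DS replicate 1. The adipocyte count in DP was 0 without either DP library or DS replicate 1.

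Markers of reticular, fascial and adventitial fibroblasts, the other fibroblasts of skin, were not low in DS. Of 19 tested 8 were higher in DS and 5 in DP, with a median of 0.59, and the list summed to 3963 and 3718 RPKM in DS, 428 and 451 in DP and 11943 and 9673 in DF. Most of the DS sum lay in Mgp and Dcn, matrix genes given above. Ly6a, a surface protein of many dermal fibroblasts, read 347 and 372 RPKM in DS and 2.88 and 2.41 in DP and 897 and 755 RPKM in DF. Cd34, a surface marker of fascial and adventitial fibroblasts, read 3.87 and 3.33 RPKM in DS and 3.21 and 3.01 in DP and was not called, against 551 and 423 RPKM in DF, and Clec3b, a secreted lectin of the same cells, read 1.74 and 1.76 RPKM in DS and 0.98 and 1.19 in DP and was not called, against 395 and 270.5 in DF. So Cd34 and Clec3b were low in all 4 DS and DP libraries, while Ly6a, Mgp and Dcn were high in DS. The part of this list in the DS-high matrix and proteoglycan results was not tested.

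Muscle of other origin shares genes with the sheath. Of 13 tested markers of pericytes and vascular smooth muscle 3 were higher in DS, among them Mcam and Cox4i2, and 4 in DP, among them Sncg and Heyl, with sums of 266 and 259 RPKM in DS and 209 and 223 in DP. Without DP replicate 1 the DP count was 2. The mural cell gene Notch3 read 1.099 and 0.85 RPKM in DS and 2.15 and 2.01 in DP and was not called. Of 9 tested markers of the arrector pili, the muscle that erects the hair, 7 were higher in DS and 0 in DP, with sums of 1191 and 1269.7 RPKM in DS and 13.5 and 16.4 in DP. These 7 include Acta2, Actg2, Npnt and Itga8. Whether arrector pili cells were among the sorted DS cells was not tested. In bulk libraries their transcripts cannot be told apart from the same transcripts of sheath cells. Des, the muscle filament protein desmin, read 0.938 and 0.171 RPKM in DS and 0.643 and 1.44 in DP. Myh11, the smooth muscle myosin heavy chain, was higher in DS at a low level (4.11 and 3.62 RPKM in DS and 1.49 and 0.606 in DP), a call that ended without DP replicate 2 (log2 difference 0.95) or DS replicate 1 (limma adjusted p = 0.0597).

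**Figure D2:**
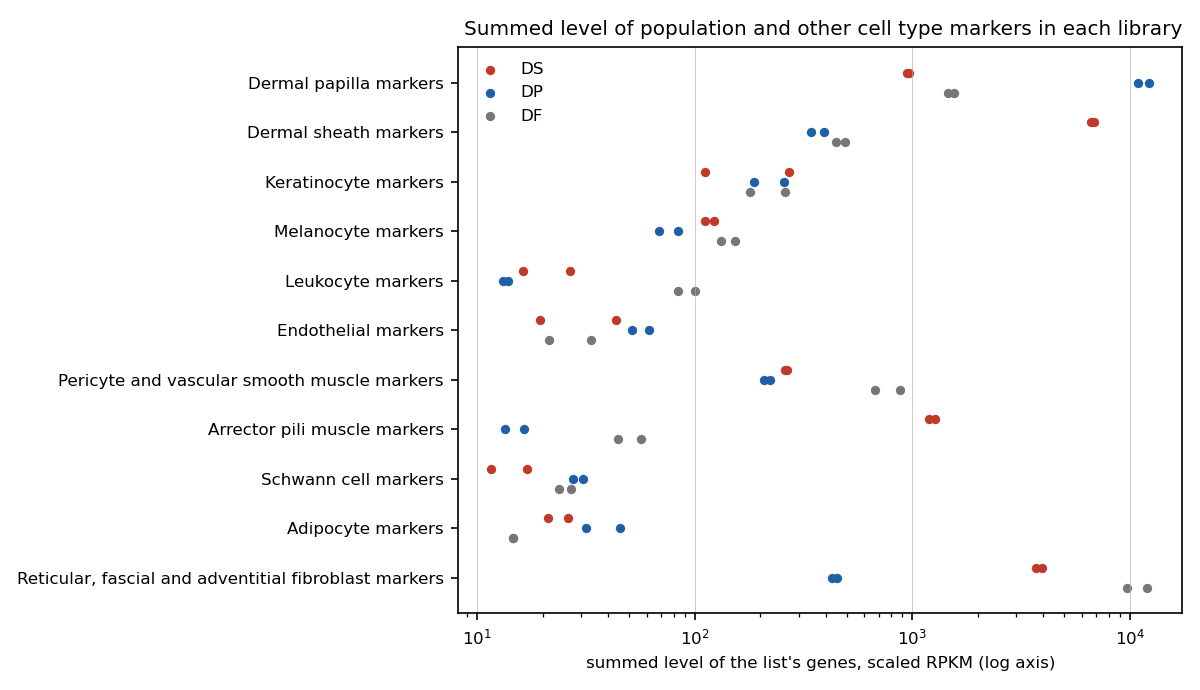
Summed level of each marker list in each library, in scaled RPKM on a log axis; each point is 1 library, red for DS, blue for DP and grey for DF. The papilla and sheath lists separate DS from DP, the arrector pili list sums to 1191 and 1269.7 in DS against 13.5 and 16.4 in DP, the keratinocyte list overlaps, and the list of other fibroblasts sums to 3963 and 3718 in DS against 428 and 451 in DP.

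The contractile apparatus lay in the sheath. Of 41 tested genes of the smooth muscle contractile apparatus 28 were higher in DS and 3 in DP, with a median log2 difference of 2.05. Acta2, the smooth muscle alpha-actin, read 899 and 981 RPKM in DS and 2.96 and 2.81 in DP. Actg2, the gamma form, read 145 and 156 RPKM in DS and 0.0907 and 0.177 in DP, and Tagln, the actin-binding protein transgelin, 139.6 and 141 RPKM in DS and 0.598 and 2.45 in DP. Both DS libraries lay far above both DP libraries in all 3 genes, with log2 differences of 7.92, 7.07 and 5.91 and limma adjusted p of 1.58e-05, 1.97e-05 and 0.000286. The regulatory enzyme followed the filaments. Mylk, the myosin light chain kinase, read 263 and 244 RPKM in DS and 2.66 and 2.16 in DP, and its substrate Myl9 read 591 and 627 RPKM in DS and 7.54 and 6.96 in DP. The tropomyosins Tpm1 and Tpm2, which set access of myosin to actin, were abundant in DS at 1051 and 968 and 438 and 386 RPKM against 71.8 and 82.6 and 31.7 and 39.6 in DP.

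Differences of other members varied, and some were not called. Cald1, Myl6 and Cnn2 were higher in DS by log2 differences of 2.05, 2.23 and 2.09, with DP levels of 309 and 280.5, 301 and 305 and 30.2 and 30.1 RPKM, so the papilla also held these widely used parts of the actin cytoskeleton. The nonmuscle myosins Myh9 and Myh10 were higher in DS by 1.31 and 3.78, with Myh10 at 152 and 211 RPKM in DS and 11.97 and 12.2 in DP. The kinases Rock1 and Rock2, which hold myosin active by blocking its phosphatase, were not called (log2 differences 0.47 and 0.052), nor was the phosphatase subunit Ppp1r12b (0.50). Ppp1r14a, an inhibitor of that phosphatase, was higher in DS (17.6 and 20.1 RPKM in DS and 1.5 and 1.99 in DP). In DF, Ppp1r14a read 49.5 and 46.2 RPKM, above DS. The whole contractile list summed to 1890 and 1758 RPKM in DF against 9302 and 9072 in DS, with no test of DF. Among the regulators of contractile genes, Srf read 11.7 and 17.9 RPKM in DS and 15.1 and 18.9 in DP and was not called. Its coactivators divided. Mrtfb was higher in DS (48.2 and 44.9 RPKM in DS and 15.2 and 15.4 in DP), Mrtfa did not pass (log2 difference 0.64), and Myocd, the coactivator specific to heart and smooth muscle, was higher in DP (0.532 and 0.961 RPKM in DS and 6.82 and 13.03 in DP). Csrp2, a muscle LIM protein, was also higher in DP, and its call ended without either DF library, DP replicate 2 or DS replicate 2 (log2 differences from -1.13 to -1.76). That call also ended with a term for replicate number (limma adjusted p = 0.0578) and in a fit of only the 4 DS and DP libraries (0.0635).

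Promoter sequence was read for the DS-high contractile genes to show where the CArG box, the element that serum response factor binds, lies in them. RefSeq windows of 250 bases before to 50 after the gene start (build GRCm38.p6) were matched for 24 of the 28 genes. The CArG box was searched with its strict consensus, which reads the same on both strands, and 6 of the 24 genes held it, against 1.81% of 27025 genes with such windows and 1.62% of the 11017 tested genes among them. The genes were Myl9, Fhl2, Cnn2, Myl6, Vcl and Fhl1, and 1 match in each is shown 5′ to 3′ on the strand of the gene, with the box in capitals.
Myl9: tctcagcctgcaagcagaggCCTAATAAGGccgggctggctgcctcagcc
Fhl2: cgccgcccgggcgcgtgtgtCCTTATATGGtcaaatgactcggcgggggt
Cnn2: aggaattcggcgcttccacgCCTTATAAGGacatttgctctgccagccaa
Myl6: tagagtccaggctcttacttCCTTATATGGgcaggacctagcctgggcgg
Vcl: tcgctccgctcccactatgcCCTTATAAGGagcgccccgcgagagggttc
Fhl1: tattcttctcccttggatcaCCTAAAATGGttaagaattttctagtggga
The windows lie upstream of the gene start, at chr2:156775283-156775332 (plus strand) for Myl9, chr1:43163963-43164012 (minus) for Fhl2 and chr10:79988524-79988573 (plus) for Cnn2. Those of Myl6, Vcl and Fhl1 lie at chr10:128493030-128493079 (minus), chr14:20929151-20929200 (plus) and chrX:56779561-56779610 (plus). The box began at base -161 from the gene start in Myl9, -31 in Fhl2, -56 in Cnn2, -50 in Myl6, -227 in Vcl and -102 in Fhl1, and Fhl2 held another at -96 of an alternative start. Fhl2, a LIM protein that binds serum response factor, read 115 and 135 RPKM in DS and 0.835 and 1.17 in DP. Vcl, which links actin to adhesion sites, read 114 and 109.5 RPKM in DS and 11.7 and 11.5 in DP and Fhl1 108 and 89.4 RPKM in DS and 5.51 and 5.41 in DP. In DF, Fhl1 read 101 and 90.9 RPKM, near its DS level, and Vcl 7.19 and 11.7. The window of Acta2 held no strict match, and a match is a description of these letters, not a binding site shown here. A second planned search took the LEF/TCF element, which Lef1 and its relatives bind, in DP-high Wnt inhibitor and feedback genes. Of the 14 such genes 9 had windows, and 0 of the 9 held the element. The shares were 9.88% of the 27025 genes and 7.31% of the 11017 tested genes.

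Calcium handling was divided between the populations. Of 31 tested genes for calcium stores, channels and pumps 7 were higher in DS and 6 in DP, with a median of 0.42, and on the deposited scale 5 and 7. The DS side held store genes. Casq2, the calcium buffer of the sarcoplasmic reticulum, read 133 and 134 RPKM in DS and 0.0594 and 0.0258 in DP. Itpr1, the inositol trisphosphate receptor that releases calcium after endothelin or thrombin signals, read 115 and 103 RPKM in DS and 19.4 and 20.3 in DP. Jph2, which ties the store to the surface membrane, read 18.6 and 22.5 RPKM in DS and 0.0432 and 0.0189 in DP. Each of these was higher in both DS libraries (log2 differences 7.01, 2.40 and 4.38). The DP side held surface channels and a different release channel. Cacna1c, the pore of the L-type calcium channel, read 11.2 and 11.6 RPKM in DS and 93.4 and 77.8 in DP. Ryr2, the ryanodine receptor of heart muscle, read 1.51 and 2.16 RPKM in DS and 20.7 and 14.4 in DP. Stac, an adaptor of L-type channels that is not in this list, read 0.342 and 0.56 RPKM in DS and 227 and 273 in DP. Cacnb2, a subunit of the same channels, was higher in DS (13.4 and 10.8 RPKM in DS and 1.46 and 0.151 in DP). The sensors of store filling, Stim1 and Stim2, were not called (log2 differences -0.076 and 0.45), and the store pump Atp2a2 differed by less than the size threshold (113 and 117 RPKM in DS and 70.7 and 59.9 in DP).

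Receptors for vasoactive signals also differed in kind. Of 31 tested genes 11 were higher in DS and 7 in DP, with a median of 0.03. Ednrb, endothelin receptor B, read 1388 and 1539.5 RPKM in DS and 11.3 and 14.2 in DP, and Ednra, receptor A, read 231 and 203 RPKM in DS and 17.7 and 17.8 in DP. Both DS libraries lay above both DP libraries in each, with log2 differences of 6.74 and 3.54 (SE 0.16 and 0.15, limma adjusted p = 1.83e-05 and 6.18e-05). DP was not without them, at 17.7 and 17.8 RPKM for Ednra and 11.3 and 14.2 for Ednrb. F2r, the thrombin receptor, read 187 and 199 RPKM in DS and 15.4 and 8.42 in DP, and S1pr3, a sphingosine phosphate receptor of smooth muscle, 24.6 and 31.1 RPKM in DS and 0.936 and 2.27 in DP. Tbxa2r, the thromboxane receptor, was also higher in DS (14.2 and 16.7 RPKM in DS and 0.686 and 1.22 in DP). These receptors act through calcium in smooth muscle. Genes that oppose contraction were on both sides. Prkg1, the kinase driven by cyclic GMP, was higher in DS (49.6 and 46.1 RPKM in DS and 3.61 and 3.097 in DP). Ptgir, the prostacyclin receptor, was higher in DP (0.213 and 0.244 RPKM in DS and 23.8 and 30.3 in DP). Higher in DP were also Ptgfr, the receptor of prostaglandin F2alpha, and Pde3a, which breaks down cyclic AMP (log2 differences -1.99 and -2.16). Calcrl, the receptor core for calcitonin gene-related peptide and adrenomedullin, was higher in DP (5.22 and 6.35 RPKM in DS and 30.2 and 25.5 in DP). Ramp1, its partner in the receptor for the first, was higher in DS (31.2 and 27.6 RPKM in DS and 0.179 and 0.51 in DP). Of its partners for adrenomedullin, Ramp2 was higher in DP (13.2 and 5.29 RPKM in DS and 18.98 and 37.3 in DP) and Ramp3 in DS (6.03 and 7.297 RPKM in DS and 1.001 and 1.63 in DP). The Ramp2 call ended without either DF library, either DP library or DS replicate 2 (limma adjusted p from 0.0603 to 0.2), and the Ramp3 call when any of the 4 DS and DP libraries was left out (0.113 to 0.191). Agtr1a, the angiotensin receptor, and Ptger3, a prostaglandin E receptor, were not called (Agtr1a at 10.01 and 9.37 RPKM in DS and 9.47 and 5.68 in DP, Ptger3 at 73.9 and 73.4 RPKM in DS and 46.05 and 62.6 in DP).

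**Figure D3:**
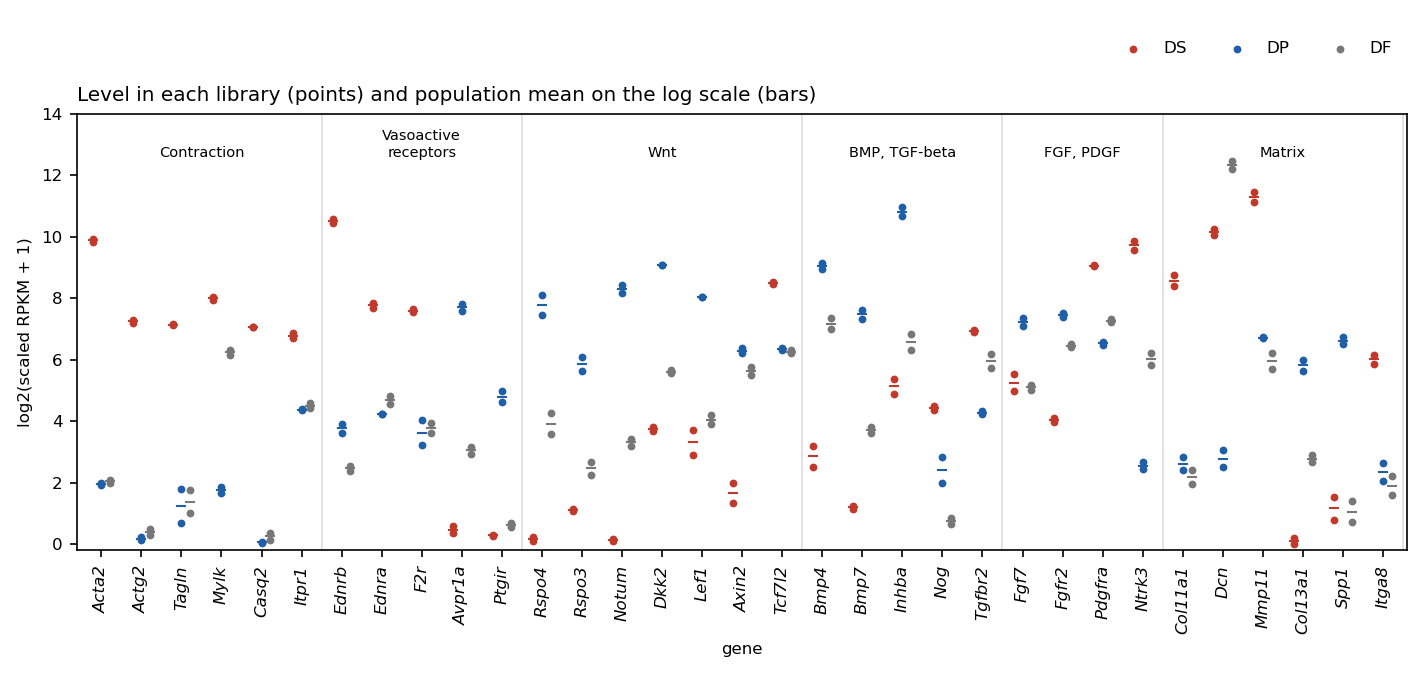
Level of 33 genes in each library as log2(scaled RPKM + 1), red for DS, blue for DP and grey for DF, with a bar at the mean of the 2 libraries of a population. Contraction genes and endothelin receptors are high in DS, Wnt agonists, Wnt targets, Bmp4 and Inhba are high in DP, and the 2 libraries of a population lie close together in most genes.

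The sheath and the papilla differed in the matrix they transcribed. Of 41 tested genes of fibrillar collagens and interstitial matrix 18 were higher in DS and 9 in DP, with a median of 0.65. Col11a1, a collagen that nucleates fibrils, read 428 and 336 RPKM in DS and 6.11 and 4.31 in DP, and Col12a1, which coats them, 542 and 489 RPKM in DS and 15.7 and 15.95 in DP. Thbs2, a thrombospondin, and Mfap5, of elastic microfibrils, were near absent from DP (Thbs2 at 259 and 249 RPKM in DS and 1.403 and 0.726 in DP, Mfap5 at 265 and 205 RPKM in DS and 1.08 and 1.86 in DP). The bulk collagens split: Col1a1 was higher in DS (475 and 469 RPKM in DS and 139 and 173 in DP) and Col3a1 in DP (314 and 275 RPKM in DS and 765 and 777 in DP). Eln, elastin, and Tnc, tenascin C, were also higher in DP (log2 differences -2.41 and -2.88). Tnc was low in DF (1.05 and 1.26 RPKM). Col1a1, Col3a1 and Eln were far higher in DF, at 56073 and 37675, 33670.5 and 25204, and 3070 and 2254 RPKM. Whether DF cells in the sorts added to the DS and DP levels of these genes was not tested. Postn, periostin, was abundant in both and did not pass (417 and 323 RPKM in DS and 253 and 162 in DP).

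Proteoglycans were divided by kind. Of 36 tested genes 15 were higher in DS and 13 in DP, with a median of 0.15. The small leucine-rich proteoglycans, which decorate collagen fibrils, were on the DS side: Dcn, Prelp (1438 and 1713 RPKM in DS and 11.3 and 4.33 in DP), Aspn, Omd, Fmod and Bgn had log2 differences of 7.37, 7.60, 7.01, 5.76, 3.78 and 2.77. Acan, the cartilage proteoglycan aggrecan, read 46.9 and 47.98 RPKM in DS and 0.0268 and 0.0612 in DP. The cell surface proteoglycans were mostly on the DP side. Sdc4, a syndecan that takes part in R-spondin and FGF signalling, read 14.4 and 21.6 RPKM in DS and 230.3 and 227 in DP, and the glypicans Gpc1, Gpc4 and Gpc6 were higher in DP (-2.36, -2.25 and -2.99), whereas Gpc3 was higher in DS (2.79). Vcan, versican, long used to mark the papilla, was present in both and higher in DP (37.6 and 40.6 RPKM in DS and 108 and 112 in DP). Cemip and Cemip2, which act on hyaluronan, were higher in DP (Cemip at 0.0783 and 0.0646 RPKM in DS and 38.02 and 36.8 in DP, Cemip2 at 3.21 and 2.66 RPKM in DS and 29.3 and 30.05 in DP).

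Basement membrane genes were also split. Of 34 tested 10 were higher in DS and 12 in DP, with a median of -0.16. Nid1 and Nid2, which link laminin to collagen IV, read 376 and 337 RPKM in DS and 40.8 and 59.4 in DP (Nid1) and 269.7 and 275 RPKM in DS and 6.47 and 6.31 in DP (Nid2). Npnt, nephronectin, which anchors muscle through integrin alpha8, read 49.02 and 49.6 RPKM in DS and 0.311 and 0.587 in DP. The DP side held Col13a1, a transmembrane collagen (0 and 0.151 RPKM in DS and 48.8 and 62.5 in DP), Col23a1 (0.816 and 1.42 RPKM in DS and 116 and 122 in DP), Col7a1 of anchoring fibrils (4.402 and 5.37 RPKM in DS and 86.8 and 71.1 in DP) and Lama4 (10.3 and 4.47 RPKM in DS and 93.1 and 112 in DP). The collagen IV chains Col4a1 and Col4a2 were not called, with log2 differences of 0.0095 and 0.27. The 95% interval for Col4a1 ran from -0.45 to 0.47.

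Of 50 tested matrix proteases and inhibitors 21 were higher in DS and 10 in DP, with a median of 0.54. Mmp11, stromelysin-3, was the most abundant of the DS set at 2219 and 2808 RPKM in DS and 103 and 106 in DP. Adamts18 and Adamts5, the latter an aggrecanase, read 78.6 and 63.4 RPKM in DS and 0.959 and 1.16 in DP (Adamts18) and 92.9 and 80.8 RPKM in DS and 4.17 and 4.56 in DP (Adamts5). Mmp13, a collagenase, read 26.3 and 16.1 RPKM in DS and was listed at 0 and 0 in DP. In DP, Mmp2, a gelatinase, read 78.5 and 102 RPKM in DS and 417 and 408 in DP, Mmp3 0.324 and 0 RPKM in DS and 37.8 and 38.95 in DP and Serpine2, a protease inhibitor of the papilla, 57.2 and 84.6 RPKM in DS and 579 and 651 in DP. Different proteases of the same families thus lay on either side.

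Among 34 tested integrins and focal adhesion proteins 10 were higher in DS and 4 in DP, with a median of 0.22. Itga8, which pairs with Itgb1 to bind nephronectin and fibronectin, read 70.6 and 57.6 RPKM in DS and 3.201 and 5.21 in DP, and Itgb1 itself was higher in DS (327 and 311 RPKM in DS and 73.5 and 64.4 in DP). Itga9, a tenascin and osteopontin receptor, was higher in DP (14.2 and 13.6 RPKM in DS and 104 and 118 in DP), as was Itga6, a laminin receptor (log2 difference -1.29). The Itga6 call ended without either DP library (limma adjusted p = 0.0552 and 0.0586) or DS replicate 2 (log2 difference -0.95), and the list's DP count was then 2 without DS replicate 2. The adaptor Tns1 was not called (0.24). Of 34 tested cadherins and other cell surface adhesion genes 9 were higher in DS and 13 in DP, with a median of -0.68. Cadherin use differed: Cdh13 and Cdh11 were higher in DS (Cdh13 at 448 and 472 RPKM in DS and 8.54 and 6.93 in DP, Cdh11 at 279.8 and 275 RPKM in DS and 72.4 and 89.6 in DP), and Cdh2, Cdh6 and Cdh22 in DP (-3.55, -2.10 and -3.91). Ncam1 was higher in DS (156 and 147 RPKM in DS and 56.4 and 39.4 in DP) and Ncam2 in DP (0.376 and 0.215 RPKM in DS and 16.1 and 17.9 in DP).

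Wnt signalling genes were called on both sides, with the R-spondins in the papilla. Of 38 tested ligands, receptors and intracellular components 13 were higher in DP and 7 in DS, with a median of -0.42, and on the deposited scale 15 and 4. All 4 R-spondins, secreted proteins that raise the cell's sensitivity to Wnt, were higher in DP. Rspo1 read 65.8 and 55.1 RPKM in DS and 342 and 468 in DP, Rspo4 0.0853 and 0.176 RPKM in DS and 174 and 273 in DP and Rspo3 1.21 and 1.12 RPKM in DS and 48.4 and 67.2 in DP. Rspo2 was listed at 0 and 0 in DS and at 7.42 and 8.21 RPKM in DP, and Rspo1 alone of the 4 was also abundant in DS. The Wnt ligands themselves were low: Wnt5a read 1.97 and 1.67 RPKM in DS and 8.56 and 7.02 in DP, Wnt10b 0.0368 and 0.151 RPKM in DS and 5.48 and 4.08 in DP, and Wnt9a, higher in DS, 15.2 and 15.1 RPKM in DS and 1.42 and 0.83 in DP. Receptors were on both sides, with Lgr4, Lgr6, Fzd10 and Ror2 higher in DP (-1.48, -4.20, -2.19 and -1.30) and Fzd2, Fzd7, Fzd8 and Lrp6 in DS (1.12, 1.17, 2.16 and 1.15). On the deposited scale Fzd2, Fzd7 and Lrp6 lay under the size threshold (0.94, 0.98 and 0.95).

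The nuclear partners of beta-catenin were divided by member. Lef1 read 12.3 and 6.53 RPKM in DS and 259.7 and 259 in DP and Tcf7 1.63 and 1.501 RPKM in DS and 74.3 and 89.5 in DP. Tcf7l2 read 365 and 354 RPKM in DS and 82.7 and 78.3 in DP and Tcf7l1, often a repressor, 39.5 and 51.4 RPKM in DS and 10.2 and 13.1 in DP. Lef1 and Tcf7 were thus higher in both DP libraries and Tcf7l1 and Tcf7l2 in both DS libraries (log2 differences -4.70, -5.01, 1.88 and 2.15). Ctnnb1, beta-catenin, read 167 and 155 RPKM in DS and 287 and 331 in DP and differed by -0.93, under the size threshold. It passed on the deposited scale (-1.14) and without DP replicate 1 (-1.04).

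Feedback targets and inhibitors of Wnt had the most negative median among the 32 lists. Of 21 tested 14 were higher in DP and 3 in DS, with a median of -3.04. Axin2, the classical feedback target, read 2.98 and 1.52 RPKM in DS and 73.8 and 81.9 in DP, and the feedback inhibitors Nkd1 and Nkd2 read 15.9 and 15.4 RPKM in DS and 130.1 and 210.4 in DP (Nkd1) and 15.3 and 13.2 RPKM in DS and 179.99 and 209 in DP (Nkd2). Notum, which strips the lipid from Wnt, read 0.0778 and 0.129 RPKM in DS and 286 and 346 in DP. Dkk2 and Sostdc1, which bind Lrp coreceptors, read 12.996 and 11.9 RPKM in DS and 545 and 534 in DP (Dkk2) and 0.794 and 0.607 RPKM in DS and 251 and 323 in DP (Sostdc1). Sfrp1 and Wif1, which bind Wnt itself, read 0.329 and 1.21 RPKM in DS and 123 and 147 in DP (Sfrp1) and 52.2 and 47.4 RPKM in DS and 343 and 415 in DP (Wif1). All 8 of these genes were higher in both DP libraries. The 3 on the DS side were Dkk3 (121 and 132 RPKM in DS and 2.97 and 3.28 in DP), Sost, which was listed at 0 in DP and read 2.11 and 10.1 RPKM in DS, and the cyclin Ccnd1. The call of Sost ended without either DP library (limma adjusted p = 0.0977 and 0.0897).

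The BMP ligands that were called were also on the papilla side. Of 30 tested BMP genes 13 were higher in DP and 4 in DS, with a median of -0.33. Bmp4 read 8.22 and 4.72 RPKM in DS and 491 and 559.8 in DP, Bmp7 1.22 and 1.38 RPKM in DS and 160.2 and 195 in DP and Bmp2 3.14 and 2.76 RPKM in DS and 41.01 and 65.7 in DP. Bmp3 and Gdf10, related ligands, read 38.8 and 36.7 RPKM in DS and 229 and 276 in DP (Bmp3) and 0.463 and 0.319 RPKM in DS and 106 and 144 in DP (Gdf10), and Bmp6 was higher in DP at a lower level (0.652 and 0.719 RPKM in DS and 13.03 and 15.5 in DP). All of these were higher in both DP libraries, with log2 differences from -2.70 for Bmp3 to -6.48 for Gdf10. Antagonists lay on both sides, with Nog and Twsg1 (46.8 and 56.8 RPKM in DS and 19.9 and 20.8 in DP) higher in DS and Sostdc1, also a Wnt inhibitor, the decoy receptor Bambi (0.402 and 0.776 RPKM in DS and 13.01 and 16.7 in DP) and Fstl3 (20.998 and 21.2 RPKM in DS and 81.2 and 98.5 in DP) higher in DP. The receptors Bmpr1a and Bmpr2 were not called (Bmpr1a at 40.6 and 41.3 RPKM in DS and 22.3 and 23.6 in DP, Bmpr2 at 59.8 and 60.8 RPKM in DS and 41.7 and 44.7 in DP). The Id genes, which BMP induces, did not move together, since Id1 was higher in DP (-1.46), Id3 in DS (1.45), and Id2 and Id4 were not called (-0.34 and 0.30). The call of Id1 ended without either DP library, either DF library or DS replicate 1 (limma adjusted p from 0.0528 to 0.135).

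Of 22 tested TGF-beta and activin genes 7 were higher in DP and 3 in DS, with a median of -0.48. Inhba, the activin A subunit, read 40.3 and 28.7 RPKM in DS and 1635 and 1983 in DP, and Inhbb 4.98 and 3.85 RPKM in DS and 70.4 and 58.7 in DP. Tgfb2 and Tgfb1 were also higher in DP (Tgfb2 at 11.5 and 12.7 RPKM in DS and 59.9 and 59.2 in DP, Tgfb1 at 18.2 and 29.6 RPKM in DS and 45.6 and 63.2 in DP). The TGF-beta receptors Tgfbr2 and Tgfbr3 were on the other side: Tgfbr2 read 125 and 117 RPKM in DS and 17.8 and 19.02 in DP and Tgfbr3, betaglycan, 73.6 and 74.6 RPKM in DS and 23.02 and 20.9 in DP. Both DS libraries exceeded both DP libraries in each (log2 differences 2.65 and 1.71). Tgfbr1 was not called (0.19, 95% interval from -0.16 to 0.55). Of the activin receptors, Acvr2b was higher in DP (log2 difference -1.42) and Acvr2a was not called (-0.20). The Acvr2b call ended without DP replicate 1 or either DS library (limma adjusted p from 0.0564 to 0.0605). Of the target genes, Ccn2 was higher in DS (199 and 218 RPKM in DS and 64.7 and 41.2 in DP) and Smad7 in DP (-1.49). The call of Tgfb1 ended without either DP library or DS replicate 1 (limma adjusted p from 0.0566 to 0.123).

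Growth factors that act through receptor kinases were split almost evenly. Of 59 tested 20 were higher in DS and 17 in DP, with a median of -0.13. The listed FGF ligands and receptors that were called lay in DP, with Fgf7 (30.3 and 45.7 RPKM in DS and 163 and 137 in DP), Fgf18 (37.7 and 28.3 RPKM in DS and 164 and 209 in DP), Fgf1, Fgf2 and Fgf11 among the ligands and all 4 receptors Fgfr1 to Fgfr4. Fgfr1 read 68.3 and 62.9 RPKM in DS and 262 and 273 in DP, Fgfr2 16.2 and 14.8 RPKM in DS and 181 and 166 in DP and Fgfr3 1.92 and 0.778 RPKM in DS and 12.5 and 18.1 in DP. Fgfr4 was low in both, at 0.153 and 0.0252 RPKM in DS and 1.45 and 1.95 in DP, against 49.8 and 40.3 in DF. Fgf10 was not called (23.1 and 21.6 RPKM in DS and 34.5 and 31.4 in DP, log2 difference -0.54, 95% interval from -0.95 to -0.13). Pdgfra, a PDGF receptor, and the neurotrophin receptors Ntrk2 and Ntrk3 were higher in DS. Pdgfra read 540.1 and 527 RPKM in DS and 94.2 and 89.1 in DP, and Ntrk2, the receptor of brain-derived neurotrophic factor, 208 and 192 RPKM in DS and 42.5 and 48.9 in DP. Pdgfrb differed by less than the size threshold (58.4 and 62.9 RPKM in DS and 38.8 and 36.6 in DP). Pdgfc and Pdgfd, ligands of these receptors, were higher in DS at low levels (2.56 and 2.49 and 14.4 and 16.5 RPKM). Vegfa and its receptor Flt1 were higher in DP (Vegfa at 6.06 and 6.75 RPKM in DS and 40.5 and 42.5 in DP, Flt1 at 1.17 and 0.177 RPKM in DS and 16.7 and 14.7 in DP).

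Of 25 tested Hedgehog and Notch genes 9 were higher in DP and 3 in DS, with a median of -0.76. Hhip, which binds Hedgehog and is induced by it, read 0.875 and 0.0729 RPKM in DS and 117 and 135 in DP. The Hedgehog targets Ptch1 and Gli1 were not called, with Ptch1 at 21.5 and 28.9 RPKM in DS and 43.3 and 58.5 in DP and Gli1 at 24.6 and 24.1 RPKM in DS and 41.3 and 37.8 in DP. Ptch1 passed on the deposited scale and without DP replicate 1 or DS replicate 2 (log2 differences -1.19, -1.19 and -1.17). Cdon, a Hedgehog coreceptor, was higher in DS (6.84 and 7.13 RPKM in DS and 0.358 and 0.18 in DP) and its relative Boc in DP (19.1 and 20.6 RPKM in DS and 49.4 and 47.6 in DP). Notch2 was higher in DS (39.2 and 38.6 RPKM in DS and 6.299 and 6.81 in DP).

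Of 47 tested transcription factors of follicle mesenchyme and muscle 14 were higher in DP and 10 in DS, with a median of -0.30. In DS, Tbx15 read 227 and 220.4 RPKM in DS and 28.7 and 24.6 in DP and Twist2 31.6 and 44.04 RPKM in DS and 4.304 and 6.93 in DP. In DP, Prdm1, the repressor Blimp1, read 6.51 and 4.88 RPKM in DS and 219 and 254 in DP, Trps1 22.7 and 18.9 RPKM in DS and 244 and 213 in DP and Twist1 34.3 and 38.2 RPKM in DS and 222 and 281 in DP. So the paralogues Twist1 and Twist2 were higher in opposite populations. Runx3 was higher in DP (17.4 and 18.4 RPKM in DS and 71.8 and 71.6 in DP). Prrx1 and Alx4, factors of limb and skin mesenchyme, were not called (log2 differences 0.69 and -0.30). Of 13 tested retinoid genes 3 were higher in DP and 2 in DS: the binders Crabp1 and Crabp2 and the degrading enzyme Cyp26b1 (48.3 and 34.7 RPKM in DS and 176 and 206 in DP) in DP, and Rdh10 (40.9 and 47.001 RPKM in DS and 5.45 and 4.76 in DP), an enzyme of retinoic acid synthesis, and Dhrs3 (198 and 230.2 RPKM in DS and 41.8 and 51.96 in DP), which opposes it, in DS.

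Immune regulators were divided with no lean. Of 31 tested 10 were higher in DS and 8 in DP, with a median of 0.19. Cd200, a surface protein that restrains macrophages, read 682 and 478 RPKM in DS and 23.6 and 18.2 in DP, and Cxcl12 read 88.1 and 86.3 RPKM in DS and 3.37 and 5.23 in DP. Il33 was also higher in DS (14.7 and 13.1 RPKM in DS and 0 and 0.0759 in DP), and Ccl19 in DP (10.8 and 13.1 RPKM in DS and 57.4 and 68.9 in DP). Immediate early and stress genes, which tissue dissociation is known to raise, leaned to DP: 19 of 31 tested were higher there and 1 in DS, with a median of -1.49. They summed to 1639.9 and 1844 RPKM in DS and 3419.6 and 3840.1 in DP, with Fos at 35.5 and 46.3 RPKM in DS and 174 and 183 in DP and Jun at 30.9 and 25.4 RPKM in DS and 210.3 and 232 in DP. In DF the list summed to 3345 and 2973 RPKM, with Fos at 207 and 167 and Jun at 300 and 262. DS was thus the lowest of the 3 populations in this sum, with no test of DF. The part of these genes in the other differences between DS and DP was not tested. Of 20 tested cell cycle genes 4 were higher in DS and 3 in DP. The proliferation gene Mki67 was low in both (1.67 and 1.103 RPKM in DS and 0.701 and 1.596 in DP) and the cell cycle inhibitors Cdkn1c and Cdkn1a lay on opposite sides (Cdkn1c at 80.6 and 55.4 RPKM in DS and 3.71 and 8.76 in DP, Cdkn1a at 110.1 and 126 RPKM in DS and 359 and 342 in DP).

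**Figure D4:**
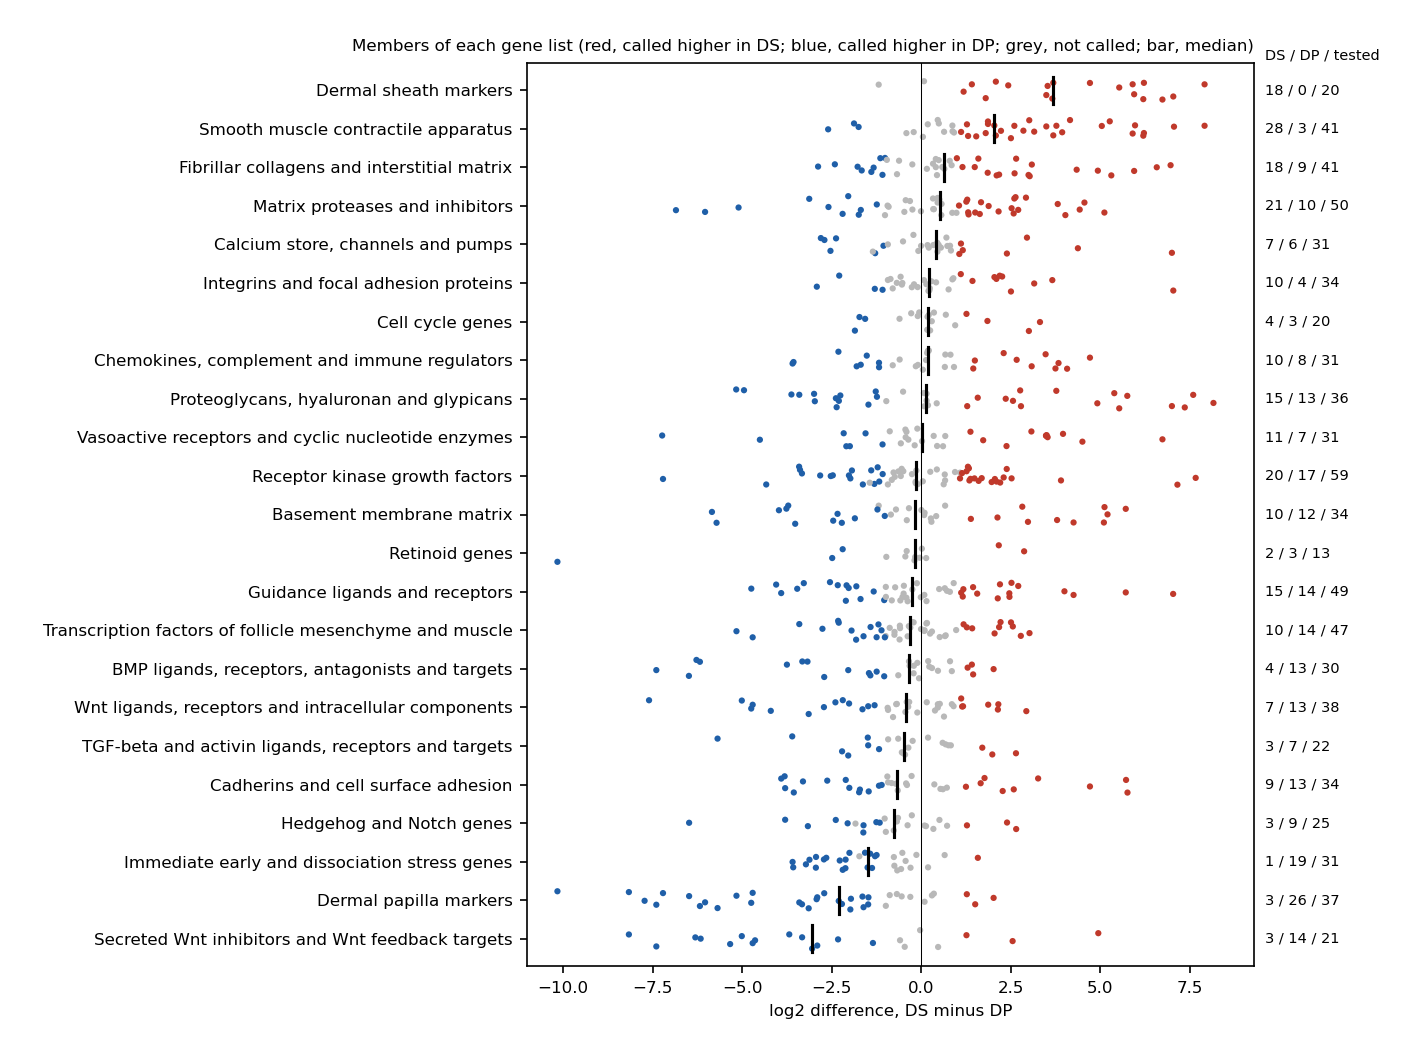
Log2 difference DS minus DP (x axis) of the tested members of 23 gene lists; each point is a gene, red when called higher in DS, blue when called higher in DP and grey when not called, and the black bar is the list's median. The numbers at the right give members higher in DS, higher in DP and tested; sheath markers and contraction genes lie to the right, with medians of 3.68 and 2.05, and Wnt inhibitors and feedback targets to the left, with a median of -3.04.

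Ligands and receptors were then paired to describe which signals each population could send to the other. Of 264 listed pairs in 19 families, 192 had both genes tested and 65 had both genes called. In 22 of the 65 the ligand and the receptor were called in opposite populations, in 15 both were higher in DS and in 28 both were higher in DP. By gene, 28 of 114 tested ligands were higher in DS (24.6%, against a background of 12.1%) and 42 in DP (36.8%, against 10.3%). Of 102 tested receptors 26 were higher in DS (25.5%) and 25 in DP (24.5%), with medians of -0.20 for ligands and 0.01 for receptors. Pard3, a cell polarity gene and not a ligand, was counted among the ligands, paired with Mc1r, after gene aliases were matched. Neither gene was called, so the counts of 65, 22, 15 and 28 do not hold this pair. The 192 pairs, the 114 ligands, their shares and their median do. The pairs were listed from general knowledge, pairs share genes, and RNA shows neither the protein nor contact between the cells.

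In 14 pairs the ligand was higher in DP and the receptor in DS, from 12 ligands and 11 receptors in 8 families. Endothelin 3 was among them: Edn3 read 0.158 and 0.026 RPKM in DS and 10.2 and 14.3 in DP, opposite its receptor Ednrb. Tgfb1 and Tgfb2 stood opposite Tgfbr2, and Tgfb2 opposite Tgfbr3. Wnt5a stood opposite Fzd2 (20.8 and 19.7 RPKM in DS and 8.13 and 9.44 in DP), though its receptor Ror2 was higher in DP (14.004 and 19.2 RPKM in DS and 39.8 and 44.1 in DP), and the Wnt inhibitors Dkk2 and Sostdc1 opposite their target Lrp6 (58.5 and 53.6 RPKM in DS and 26.1 and 23.4 in DP). Tgfa (0.231 and 0.801 RPKM in DS and 3.42 and 1.61 in DP) stood opposite Egfr (24.5 and 30.2 RPKM in DS and 11.4 and 5.91 in DP), and Dll1 (0.815 and 3.03 RPKM in DS and 10.2 and 5.09 in DP) opposite Notch2. Notch1, also paired with Dll1, had means of 9.17 RPKM in DS and 35.7 in DP and was not called (log2 difference -1.83). Some of these calls ended with a library left out: Tgfa without either DS library, either DF library or DP replicate 1 (limma adjusted p from 0.0535 to 0.158), Dll1 without either DP library, either DF library or DS replicate 1 (0.0572 to 0.191), Tgfb1 as given above, and Egfr without DS replicate 2 (0.06). On the deposited scale Fzd2 and Lrp6 were under the size threshold, at 0.94 and 0.95. With a term for replicate number the calls of Tgfa and Dll1 also ended (limma adjusted p = 0.0626 and 0.0706). So they did in a fit of only the 4 DS and DP libraries (limma adjusted p = 0.0615 and 0.0741). The remaining 5 pairs joined papilla matrix or surface ligands to sheath integrins. Spp1, osteopontin, read 0.743 and 1.901 RPKM in DS and 89.3 and 107 in DP and stood opposite Itga8 and Itgav (97.02 and 102 RPKM in DS and 22.3 and 24.3 in DP), Tnc stood opposite Itga8, Col3a1 opposite Itga11, and Sema7a (1.58 and 1.51 RPKM in DS and 5.997 and 10.3 in DP) opposite Itgb1. Col3a1 was far higher in DF than in either, as given above. Tgfb2 and Wnt5a also read higher in DF than in DP, at 184.8 and 184.6 and 30.6 and 19 RPKM. In the other ligands of these 14 pairs the DF mean lay below the DP mean, with no test of DF.

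In 8 pairs the ligand was higher in DS and the receptor in DP, from 5 ligands and 7 receptors. All but the adrenomedullin pair were guidance signals, and of 49 tested guidance genes 15 were higher in DS and 14 in DP, with a median of -0.24. Ntn1, netrin-1, read 88.4 and 75.7 RPKM in DS and 3.38 and 3.27 in DP, opposite its receptors Unc5b (3.42 and 5.29 RPKM in DS and 77.6 and 78.6 in DP), Unc5c (0.0509 and 0 RPKM in DS and 7.98 and 9.97 in DP) and Dcc (0.0241 and 0.148 RPKM in DS and 2.47 and 2.53 in DP). The semaphorins Sema3c (33.9 and 26.6 RPKM in DS and 1.14 and 0.747 in DP) and Sema3b (7.26 and 9.85 RPKM in DS and 0.461 and 0.848 in DP) stood opposite Nrp2 (19.5 and 15.4 RPKM in DS and 73.3 and 73.7 in DP), and Sema3c also opposite Plxnd1 (4.13 and 1.98 RPKM in DS and 23.4 and 20.3 in DP). Efnb1 (7.88 and 10.4 RPKM in DS and 3.51 and 3.76 in DP) stood opposite Ephb1 (0.27 and 0.205 RPKM in DS and 5.08 and 5.34 in DP), while its receptors Ephb2 (7.45 and 8.73 RPKM in DS and 0.636 and 0.647 in DP) and Ephb3 (22.3 and 18.01 RPKM in DS and 7.35 and 9.53 in DP) were higher in DS as it was. Adm, adrenomedullin (20.1 and 22.7 RPKM in DS and 1.46 and 3.37 in DP), stood opposite Calcrl. Of these receptors Unc5b and Nrp2 were the most abundant in DP. In DF, Sema3b read 187 and 136 RPKM and Sema3c 72.2 and 84.6, above both DS libraries. The DF means of Ntn1, Efnb1 and Adm lay below their DS means, with no test of DF. The call of Efnb1 ended on the deposited scale (log2 difference 0.97) and without either DP library or DS replicate 2 (limma adjusted p from 0.0502 to 0.0634). That of Ephb3 ended on the deposited scale (log2 difference 0.98) and without DP replicate 1 or DS replicate 1 (limma adjusted p = 0.092 and 0.0808).

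Within the sheath, 15 pairs had both genes higher in DS, in 7 families. Edn1, endothelin 1, was higher in DS at a low level (3.36 and 3.84 RPKM in DS and 0.443 and 0.76 in DP, log2 difference 1.53, limma adjusted p = 0.0232), beside Ednra and Ednrb. That call ended when any of the 4 DS and DP libraries was left out (adjusted p from 0.0728 to 0.121). Slit2 and Slit3, guidance proteins, were abundant in DS (Slit2 at 894 and 789 RPKM in DS and 181 and 182 in DP, Slit3 at 460.4 and 426 RPKM in DS and 83.3 and 75.1 in DP) beside Robo2 (178 and 168 RPKM in DS and 62.03 and 53.8 in DP). Cxcl12 stood beside its scavenging receptor Ackr3 (65.4 and 58.6 RPKM in DS and 3.26 and 4.1 in DP), while its signalling receptor Cxcr4 was not called (28.2 and 16.6 RPKM in DS and 20.04 and 18.3 in DP). Gdnf and its coreceptor Gfra1 were both low (2.704 and 3.29 and 4.67 and 6.05 RPKM in DS). Matrix made up 5 pairs, Npnt and Fn1 with Itga8, Fn1 with Itgav, Col1a1 with Itga11 and Thbs1 with Cd47. Npnt and Itga8 are also arrector pili markers, and the part of such cells in these pairs was not tested. Fn1, fibronectin, read 201 and 149.7 RPKM in DS and 33.6 and 21.1 in DP, against 1529 and 1223 in DF. Col1a1 was likewise far higher in DF, as given above. The part of DF cells in these ligand levels was not tested.

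Within the papilla, 28 pairs had both genes higher in DP, in 11 families. R-spondins gave 7 of their 10 tested pairs, with the receptors Lgr4 (12.5 and 11.5 RPKM in DS and 39.2 and 31.5 in DP) and Lgr6 (2.63 and 3.61 RPKM in DS and 69.8 and 78.6 in DP) and the coreceptor Sdc4. FGFs gave 5 of 9: Fgf1 and Fgf2 with Fgfr1, Fgf1 and Fgf7 with Fgfr2, and Fgf18 with Fgfr3. The activin receptor Acvr2b (4.07 and 3.88 RPKM in DS and 15.6 and 9.57 in DP) was paired with Inhba, Inhbb, Bmp7 and Gdf11, but its call ended without DP replicate 1 or either DS library (limma adjusted p from 0.0564 to 0.0605), and that of Gdf11 without DP replicate 2 or DS replicate 1 (0.0635 and 0.0692). Spp1 and Tnc, which also had sheath receptors, had Itga9 in the papilla. The cytokine Clcf1 (4.56 and 3.31 RPKM in DS and 22.4 and 25.9 in DP) was paired with Cntfr (3.43 and 3.297 RPKM in DS and 406 and 331 in DP).

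In other pairs the ligand was called and the receptor was not, 37 with a DP ligand and 24 with a DS ligand. For Bmp2 and Bmp4, the receptors Bmpr1a and Bmpr2 had 95% intervals from 0.48 to 1.14 and from 0.14 to 0.80 (log2, DS minus DP). For Gas6, higher in DS (147 and 171 RPKM in DS and 0.732 and 1.45 in DP), the receptor Axl read 95.6 and 106 RPKM in DS and 91.3 and 95.9 in DP (log2 difference 0.10, 95% interval from -0.20 to 0.41). The receptor Robo1 of the Slit proteins read 65.8 and 67.2 RPKM in DS and 121 and 115 in DP and was not called, except on the deposited scale (-1.03).

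**Figure D5:**
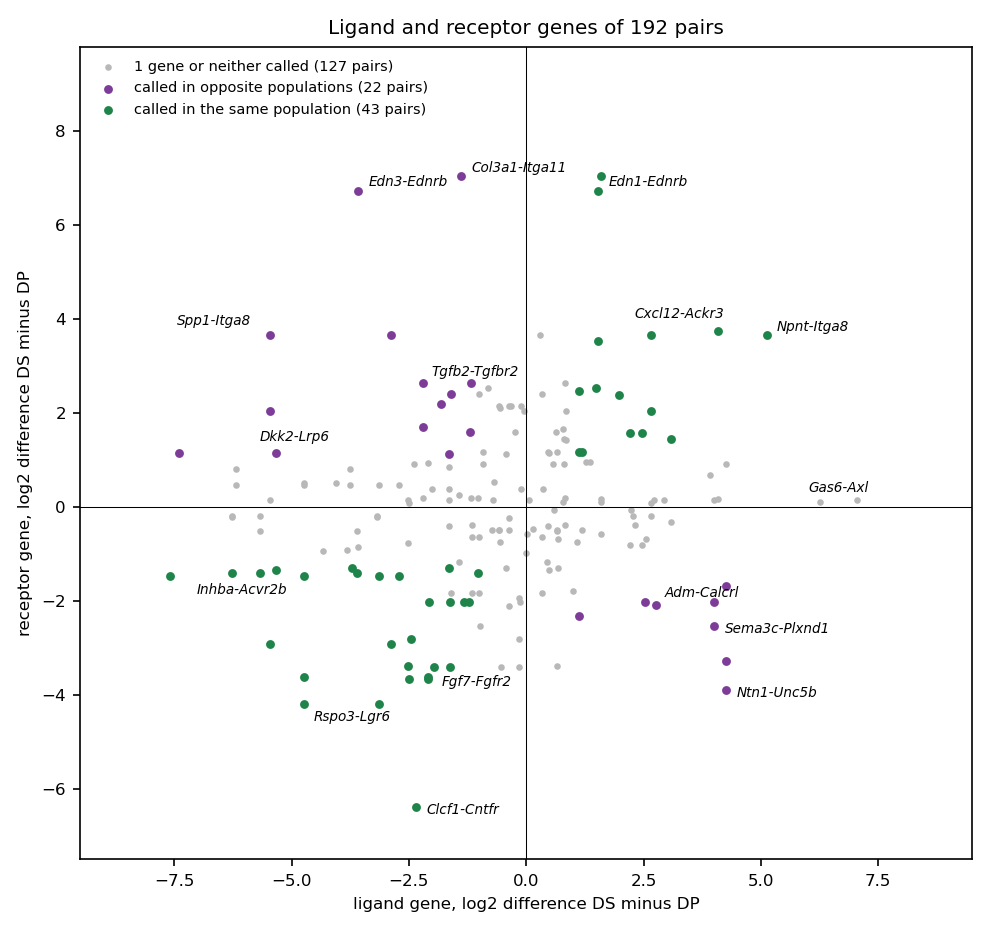
Log2 difference DS minus DP of the ligand gene (x axis) and the receptor gene (y axis) in 192 pairs; each point is a pair, purple where both genes were called in opposite populations (22 pairs), green where both were called in the same population (43 pairs) and grey otherwise (127 pairs). Edn3 with Ednrb and Col3a1 with Itga11 lie at the upper left, Ntn1 with Unc5b at the lower right, and R-spondin and FGF pairs at the lower left. The grey points include Pard3 with Mc1r, in which Pard3 is not a ligand.

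The 2 libraries of a population were alike. Across genes, log2 values of the 2 DS libraries correlated at 0.939 and those of the 2 DP libraries at 0.949, and DS with DP libraries at 0.745 to 0.753, with genes not independent of each other. Relative depth estimated from low RPKM values rested on ratios shared by 47 to 63 of 1421 to 1631 genes in the DS and DP libraries, so it is not used. The labels and the table state no read totals, so counting error was not computed. With 2 libraries against 2, an exact permutation test cannot go below p = 0.333, so every call rests on limma's spread shared across genes and on the difference between these sorted samples.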

How the data were processed

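RNA was measured in 6 libraries, 2 each of DS, DP and DF cells sorted from mouse back skin. The deposited values are RPKM per gene and library, made by the authors, with no pooling of replicates. Per the submitters' processing notes, Salmon 1.9.0, DESeq2 1.28.1 and the build GRCm39 were used, with no role or order stated. The sources used here name neither the annotation nor the read totals.

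RPKM were divided by median-ratio factors over 15349 genes above 0 in every library (1.10 and 1.12 for DS, 1.30 and 1.27 for DP), since a few abundant genes shift RPKM of all others. The printed RPKM are these scaled values, and the filter of 1 RPKM in 2 libraries used the deposited ones. log2(scaled RPKM + 1) of the 14172 genes was fitted in limma 3.58.1 (R 4.3.3) with a mean per population over all 6 libraries and moderation by eBayes with a trend, on 3 residual degrees of freedom and 2.8 prior ones. The pseudocount of 1 understates the change of low genes. The DS minus DP contrast was two-sided, and its p-values were adjusted over all tested genes by the Benjamini-Hochberg method. Intervals are 95%, and SE are on the log2 scale. The procedure was tested on simulated data.

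The comparison, the 32 gene lists and the 264 pairs were chosen from general knowledge with earlier results of these data known, and lists share genes. Genes were named by rule: the 15 protein-coding genes per direction with the largest difference, at least 5 RPKM and no overlap, up to 8 called and 3 other members of each list, genes of called pairs and a list of focal genes. Not every gene so picked is described. Of 280 genes named, with Notch1 and Pard3 not counted, 66 list members outside that rule, such as Axin2, Tpm1 and Myocd, were chosen after their values were seen. Gene types came from RefSeq for 24506 IDs, and promoter windows from RefSeq on GRCm38.p6. Alternatives changed the scaling, libraries, pseudocount, filter, gene types, variance trend, replicate block and fold minimum. p-values measure the spread between these samples.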

Additional observations from a re-analysis of the deposited data

How the results depend on the processing

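The counts of 1711 and 1463 calls and of 22, 15 and 28 pairs stayed within 1.5 times of these values under 15 of 16 alternatives. With no fold minimum 2747 genes were higher in DS, 2279 in DP and 38 pairs were split. Leaving out a library gave 1432 to 1717 DS calls, 1168 to 1495 DP calls, 18 to 22 split pairs, 10 to 15 pairs within DS and 22 to 28 within DP. Same-numbered libraries did not deviate together (correlation -0.0389 for DS and DP). The labels do not say what a number shares, and this correlation cannot show whether the samples are paired. A replicate block gave 1687 and 1434 calls and 20, 15 and 28 pairs, and changed no direction. Among the named genes, the block ended the calls of Csrp2, Dll1, Ramp2, Ramp3 and Tgfa. A fit of only the 4 DS and DP libraries ended those of Csrp2, Dll1, Id1, Ramp2 and Tgfa. Of 1024 combinations of list count and alternative 981 stayed within 1.5 times and 43 moved. Of 280 genes named, with Notch1 and Pard3 not counted, 239 kept their direction and their side of the thresholds under all of the 16 alternatives that gave them a value. The sign of 12 uncalled genes reversed. On the deposited scale it did so for Axl (-0.11), Cd34 (-0.00), Col4a1 (-0.20), Cxcr4 (-0.03), Itga5 (-0.12), Mc1r (-0.05), Rock2 (-0.16) and Tgfbr1 (-0.01). With the same sum without the 100 highest genes it did so for Axl (-0.05), Col4a1 (-0.14), Itga5 (-0.07) and Rock2 (-0.10). Leaving out a library gave ranges that crossed 0 for Col4a1 (-0.22 to 0.23), Cxcr4 (-0.18 to 0.55), Itga5 (-0.02 to 0.18), Mc1r (-0.03 to 0.33), Mki67 (-0.13 to 0.46), Rock2 (-0.04 to 0.17), Srf (-0.48 to 0.09), Cdh5 (-1.06 to 0.25) and Pecam1 (-1.20 to 0.33). With 2 libraries per population, calls near the thresholds depended on single libraries, as given beside them, and the cause was not tested. Depth per library is not known, so what it limits in low genes was not estimated.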

Other observations

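Several of the widest differences lay in genes outside the lists. In DP, Slc12a1, the sodium, potassium and chloride cotransporter known from the kidney, read 0.0199 and 0.0328 RPKM in DS and 230.2 and 206 in DP. Dpp4, a surface peptidase used to mark some dermal fibroblasts, read 0.274 and 0.337 RPKM in DS and 176 and 148 in DP, with 98.3 and 102 RPKM in DF. Tfap2c, a transcription factor better known from surface ectoderm, read 0.454 and 0.745 RPKM in DS and 217 and 235 in DP, and Rasd1, a small GTPase induced by glucocorticoids, 0.0666 and 0.606 RPKM in DS and 89.4 and 172 in DP. In DS, Cpxm2, a secreted carboxypeptidase-like protein, read 316 and 310.4 RPKM in DS and 0.599 and 0.337 in DP, and Fgl2, a fibrinogen-like protein, 522 and 498 RPKM in DS and 3.68 and 2.17 in DP. All 6 genes were called, with log2 differences from -6.58 for Rasd1 to -7.73 for Slc12a1 on the DP side and of 7.75 and 7.05 on the DS side.

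A group of genes was read almost entirely in 1 of the 2 populations. At a mean of 5 RPKM or more in DS and under 1 RPKM in both DP libraries there were 181 genes, of which 179 were called and 158 code for protein. In the opposite direction there were 220 genes, of which 211 were called and 163 code for protein. The thresholds choose genes on the values compared, so these are counts and not tests.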
